A study of Mus musculus with 8 samples.

Results

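The genes described here are the 10 that write, maintain or erase cytosine methylation of DNA, or feed the erasers, in mouse haematopoietic stem cells (HSCs): Dnmt1, Dnmt3a, Dnmt3b, Dnmt3l, Uhrf1, Tet1, Tet2, Tet3, Idh1 and Idh2. They were chosen by gene symbol for their known roles, and all 10 were found among the 55487 gene rows of every library. Bulk RNA-seq libraries were compared from HSCs labelled miR652-KD (knockdown of the microRNA miR-652, 4 libraries) and HSCs labelled NTC (non-target control, 4 libraries). All were made from HSCs sorted into lysis buffer by the Smart-seq2 protocol, which copies polyadenylated RNA over its full length. Strain, age, sort markers, knockdown method and whether libraries came from separate animals: not given in the sources used here. The p-values therefore measure only how far these libraries spread, which may be technical.

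In mammals DNMT3A and DNMT3B place new methyl groups on CpG dinucleotides, DNMT3L assists them in germ cells, and DNMT1, recruited to newly copied DNA by UHRF1, restores the pattern after replication. The TET enzymes oxidise 5-methylcytosine, the first step of its removal, and use 2-oxoglutarate, which IDH1 in the cytosol and IDH2 in mitochondria produce. In blood, loss of DNMT3A or TET2 function enlarges the HSC pool and is a common event in clonal haematopoiesis and myeloid leukaemia, and mutant IDH enzymes make a metabolite that inhibits TET enzymes.

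Because the comparison is a knockdown of miR-652, its mature arms and their matches in the 3′ UTRs of these genes are shown first. RefSeq (GRCm38.p6) gives these sequences, 5′ to 3′, with the seed (bases 2 to 8) in capitals.
miR-652-3p: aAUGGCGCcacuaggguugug
miR-652-5p: cAACCCUAggagggggugccauuc
A match was counted where the longest annotated 3′ UTR (GENCODE M21, the same build) held the reverse complement of the seed on the sense strand, GCGCCAT for the 3p arm and TAGGGTT for the 5p arm. Among the 10 genes, 1 held the 3p match and 2 held the 5p match, and these are printed with the match in capitals.
Uhrf1, 3p match, chr17:56322946-56322974, plus strand: tgccctggcccGCGCCATtcactgacatg
Dnmt3a, 5p match, chr12:3913150-3913178, plus strand: gtattttttgtTAGGGTTgcttctctatt
Tet2, 5p match, chr3:133463934-133463962, minus strand: ggttaacttgtTAGGGTTttttttttttt
The 3p letters occurred in 1.66% and the 5p letters in 7.40% of 21039 such 3′ UTRs. These shares were not matched for length, and longer 3′ UTRs have more places for a match. The 3′ UTRs searched were 984 bases long for Uhrf1, 6696 for Dnmt3a and 3058 for Tet2. A match of letters is a description and not a measured site.

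The libraries held 14677644 to 19894821 counts in genes in miR652-KD and 14017632 to 16763709 in NTC. The hairpin gene Mir652 had 5, 0, 0 and 0 counts in miR652-KD replicates 1 to 4 and 1, 0, 0 and 2 counts in NTC replicates 1 to 4, and this assay does not capture mature microRNAs, so the knockdown was not checked. All 14 HSC markers were detected in every library, with a summed level of 3509 to 3834 CPM (counts per 1000000 counts in genes) in miR652-KD and 3506 to 4262 CPM in NTC. Of these, Kit was at 380, 435, 402 and 416 CPM in miR652-KD, against 664, 482, 485 and 440 CPM in NTC. Every miR652-KD library was below every NTC library in Kit, where 4.50% of all tested genes did not overlap in either direction. Procr and Slamf1 overlapped between the groups. Markers of other cells differed between libraries. The 12 erythroid markers summed to 38.4 to 2348 CPM in miR652-KD and 2399 to 5839 CPM in NTC, without overlap, and the 13 neutrophil markers to 702 to 4992 CPM in miR652-KD and 729 to 15000 CPM in NTC, highest in NTC replicates 3 and 4. The 11 macrophage and dendritic markers summed to 815 to 1039 CPM in miR652-KD and 718 to 2272 CPM in NTC. Of 8 T and NK cell markers, 5 were at 0 in every library, among them Cd3e and Cd8a, and the list summed to 120 to 238 CPM in miR652-KD and 154 to 458 CPM in NTC, nearly all of it Nkg7. The part of these other markers in the values below was not tested. In bulk RNA, fewer cells of a type and less RNA per cell cannot be told apart.

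None of the 10 genes passed the test between miR652-KD and NTC. Of the 9 tested genes 0 had an adjusted p below 0.05 (edgeR quasi-likelihood test, Benjamini-Hochberg over 14360 genes), where 0.0418% of all tested genes were called, 0.0279% higher in miR652-KD and 0.0139% lower. DESeq2 and limma-voom also called 0 of the 9. At an unadjusted p below 0.05 there was 1, Uhrf1, higher in miR652-KD, where 5.99% of all tested genes were below it, 2.90% higher and 3.09% lower. The ranges of the groups overlapped in all 9, against 4.50% of tested genes without overlap. Log2 fold changes, given as miR652-KD over NTC, were above 0 for 6 and below 0 for 3, with a median of 0.11, and 49.5% of all tested genes were above 0 and 50.5% below.

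**Figure D1:**
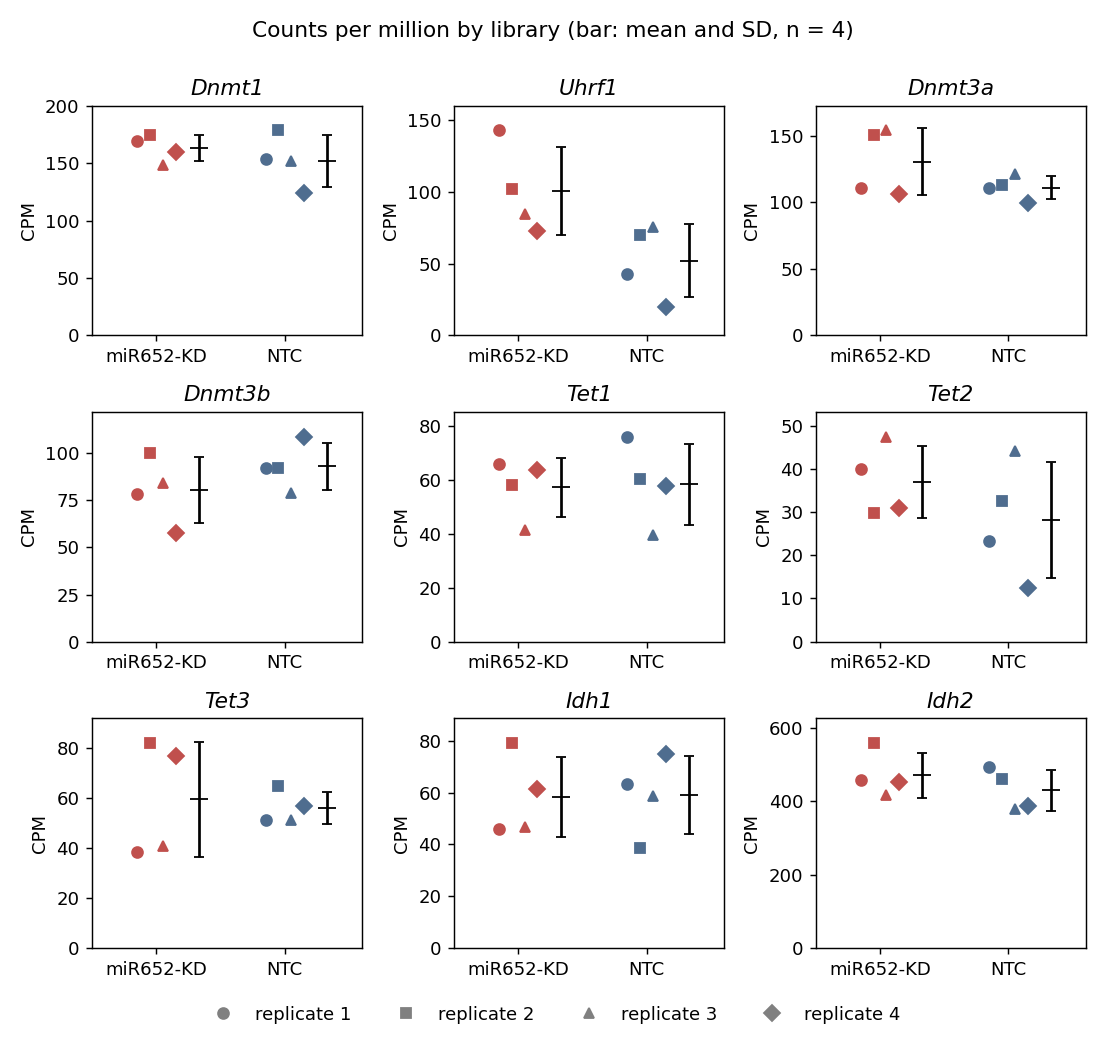
CPM of the 9 detected genes in each library, miR652-KD left and NTC right, with marker shape for the replicate number and bars for the mean and SD of 4 libraries. Uhrf1 lies between 73.1 and 143 CPM in miR652-KD and between 19.95 and 75.3 CPM in NTC, and the groups overlap in every panel.

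Of the maintenance genes, Uhrf1 had the largest difference among the 9 tested genes and Dnmt1 a small one. Uhrf1 (ENSMUSG00000001228.14, chromosome 17, 56303321 to 56323486, plus strand), the reader of half-methylated DNA that brings DNMT1 to the replication fork, had 143, 102, 84.8 and 73.1 CPM in the miR652-KD libraries, in order of replicate number, against 43.0, 70.0, 75.3 and 19.95 CPM in the NTC libraries. A single miR652-KD library, replicate 4, lay below the highest NTC library, replicate 3, and NTC replicate 4 was the lowest of all. The means were 101 ± 30.5 CPM in miR652-KD and 52.1 ± 25.7 CPM in NTC (SD, n = 4 each). Uhrf1 had a log2 fold change of 0.95 (SE 0.39, 95% interval 0.09 to 1.81), with an unadjusted p of 0.0333 and an adjusted p of 0.817 by edgeR's quasi-likelihood test. Of the tested genes, 4.05% had a smaller p. DESeq2 gave an adjusted p of 0.383. With NTC replicate 4 left out the edgeR log2 fold change was 0.69, with miR652-KD replicate 1 left out 0.73, and over all single libraries at most 1.19 (NTC replicate 3 left out), with edgeR adjusted p from 0.703 to 0.942. Without NTC replicates 3 and 4, the libraries richest in neutrophil markers, it was 0.83.

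Dnmt1 (ENSMUSG00000004099.16, chromosome 9, 20907209 to 20959888, minus strand), the maintenance methyltransferase, was at 170, 175, 149 and 160 CPM in miR652-KD, against 154, 179, 152 and 124 CPM in NTC. The miR652-KD range lay inside the wider NTC range, with NTC replicate 2 the highest library and NTC replicate 4 the lowest, as it was for Uhrf1. Dnmt1 had a log2 fold change of 0.11 (SE 0.13, 95% interval -0.19 to 0.40; edgeR adjusted p = 0.996), which was 0.03 without NTC replicate 4, 0.21 without NTC replicate 2 and -0.02 when NTC replicates 3 and 4 were both left out. The 2 genes differed in spread. The coefficient of variation of Dnmt1 was 7.04% in miR652-KD and 14.7% in NTC, and that of Uhrf1 30.3% in miR652-KD and 49.3% in NTC. Per kb of exon, Uhrf1 stood at 79.0% to 146% of Dnmt1 in miR652-KD libraries and at 27.9% to 86.0% in NTC libraries.

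The promoter windows of both maintenance genes shared letters that the other members lacked. RefSeq windows of 250 bases before to 50 after a start site (GRCm38.p6) were searched on both strands for 4 spellings of the E2F motif, TTTCCCGC, TTTGGCGC, TTTCGCGC and TTTGCCGC, found in 2.26% of 32851 windows. Of 18 windows of the 10 genes, 2 held a spelling, one of the 3 of Dnmt1 and one of the pair of Uhrf1. They are printed with the matches in capitals, which do not overlap each other.
Uhrf1, chr17:56304063-56304362, plus strand: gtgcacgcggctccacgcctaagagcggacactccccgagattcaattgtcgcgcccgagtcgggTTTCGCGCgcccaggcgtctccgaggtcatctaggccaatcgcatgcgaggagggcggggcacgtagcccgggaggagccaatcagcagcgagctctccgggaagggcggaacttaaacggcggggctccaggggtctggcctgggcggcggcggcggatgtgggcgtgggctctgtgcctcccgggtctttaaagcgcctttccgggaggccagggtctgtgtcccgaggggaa
Dnmt1, chr9:20952574-20952873, minus strand: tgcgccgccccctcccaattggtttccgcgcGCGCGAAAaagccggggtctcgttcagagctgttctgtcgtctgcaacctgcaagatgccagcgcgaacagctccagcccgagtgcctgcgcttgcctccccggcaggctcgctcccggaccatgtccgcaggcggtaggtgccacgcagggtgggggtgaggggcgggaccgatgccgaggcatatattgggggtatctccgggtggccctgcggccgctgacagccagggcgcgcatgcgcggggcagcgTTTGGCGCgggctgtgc
Both windows are rich in CpG, with 33 CpG each, against a median of 7 over all windows. Of the 18 windows, 14 had more CpG than that median and 15 held the GC box GGGCGG on either strand, against 35.7% of all windows. The richest were those of Tet2, with 57 CpG, and Dnmt3a, with 47. The 3 windows of Dnmt3l held 3 to 6 CpG.

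The de novo enzymes had differences of opposite sign, and neither passed. Dnmt3a (ENSMUSG00000020661.15, chromosome 12, 3806007 to 3914443, plus strand) was at 111, 150, 154 and 106 CPM in miR652-KD, against 110, 113, 121 and 99.6 CPM in NTC. Replicates 2 and 3 of miR652-KD stood above every NTC library, while the other miR652-KD libraries lay inside the NTC range. The log2 fold change was 0.23 (SE 0.15, 95% interval -0.10 to 0.57; edgeR adjusted p = 0.934). It was 0.15 without miR652-KD replicate 3. Its exons overlap the antisense gene Dnmt3aos over a short stretch, where reads cannot be told apart. Dnmt3b (ENSMUSG00000027478.15, chromosome 2, 153649450 to 153687730, plus strand) was at 78.4, 100.2, 84.2 and 57.8 CPM in miR652-KD, against 92.1, 92.2, 78.6 and 109 CPM in NTC. The lowest value was in miR652-KD replicate 4 and the highest in NTC replicate 4. The log2 fold change was -0.21 (SE 0.18, 95% interval -0.62 to 0.20; edgeR adjusted p = 0.989), and ranged between -0.08 (miR652-KD replicate 4 left out) and -0.33 (miR652-KD replicate 2 left out), with -0.12 when NTC replicate 4 was left out. Per kb of exon the ratio of Dnmt3a to Dnmt3b was 0.433, 0.459, 0.561 and 0.565 in miR652-KD and 0.368, 0.374, 0.472 and 0.281 in NTC. The groups overlapped in this ratio through NTC replicate 3. Dnmt3l (ENSMUSG00000000730.13, chromosome 10, 78041947 to 78063622, plus strand), known from germ cells, had 0 counts in every library, which allows a level of up to 0.151 to 0.214 CPM depending on the library, for counting error only.

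None of the TET genes passed. The coefficient of variation was larger in NTC for Tet1 and Tet2 and in miR652-KD for Tet3, and these differences were not tested. Tet2 (ENSMUSG00000040943.12, chromosome 3, 133463679 to 133545139, minus strand) was at 39.9, 29.9, 47.4 and 30.9 CPM in miR652-KD, against 23.4, 32.5, 44.1 and 12.5 CPM in NTC. Its exons overlap Gm42567 on the other strand over a few bases. NTC replicate 4 was again the lowest library and NTC replicate 3 was above all miR652-KD libraries but one. The coefficient of variation of Tet2 was 22.4% in miR652-KD and 47.7% in NTC. Its log2 fold change of 0.40 (SE 0.36, 95% interval -0.41 to 1.203; edgeR adjusted p = 0.992) ranged between 0.16 (NTC replicate 4 left out) and 0.70 (NTC replicate 3 left out), and was 0.26 with miR652-KD replicate 3 left out. Tet1 (ENSMUSG00000047146.17, chromosome 10, 62804570 to 62908996, minus strand) was at 65.9, 58.2, 41.5 and 63.5 CPM in miR652-KD, against 76.1, 60.5, 39.4 and 57.9 CPM in NTC. Replicate 3 was the lowest library in each group, and the coefficient of variation was 19.2% in miR652-KD and 25.7% in NTC. Tet1 had a log2 fold change of -0.02 (SE 0.23, 95% interval -0.54 to 0.50; edgeR adjusted p = 0.999). Tet3 (ENSMUSG00000034832.15, chromosome 6, 83362373 to 83459084, minus strand) was at 38.4, 82.1, 40.7 and 76.8 CPM in miR652-KD, against 51.3, 64.8, 51.2 and 56.8 CPM in NTC. The miR652-KD libraries lay on both sides of the NTC range, a pair above it and a pair below it. The coefficient of variation of Tet3 was 38.9% in miR652-KD and 11.5% in NTC, with a log2 fold change of 0.09 (SE 0.27, 95% interval -0.52 to 0.70; edgeR adjusted p = 0.999).

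Idh2 was the most abundant of the 10 genes and, with Dnmt1, the least variable by the within-group SD of log2 CPM. Idh2 (ENSMUSG00000030541.16, chromosome 7, 80094846 to 80115392, minus strand), the mitochondrial isocitrate dehydrogenase, was at 458, 559, 416 and 452 CPM in miR652-KD, against 495, 459.9, 378 and 387 CPM in NTC. Its within-group SD of log2 CPM was 0.18, a size that 8.52% of tested genes did not exceed. Idh2 had a log2 fold change of 0.14 (SE 0.12, 95% interval -0.13 to 0.41; edgeR adjusted p = 0.991), which was 0.05 without miR652-KD replicate 2, 0.08 without NTC replicate 3 and -0.0093 when NTC replicates 3 and 4 were both left out. Idh1 (ENSMUSG00000025950.16, chromosome 1, 65158616 to 65186500, minus strand), the cytosolic enzyme, was at 46.0, 79.2, 46.9 and 61.4 CPM in miR652-KD, against 63.5, 38.7, 58.8 and 75.0 CPM in NTC. The groups covered nearly the same range. The log2 fold change of Idh1 was -0.01 (SE 0.25, 95% interval -0.56 to 0.54; edgeR adjusted p = 0.999).

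**Figure D2:**
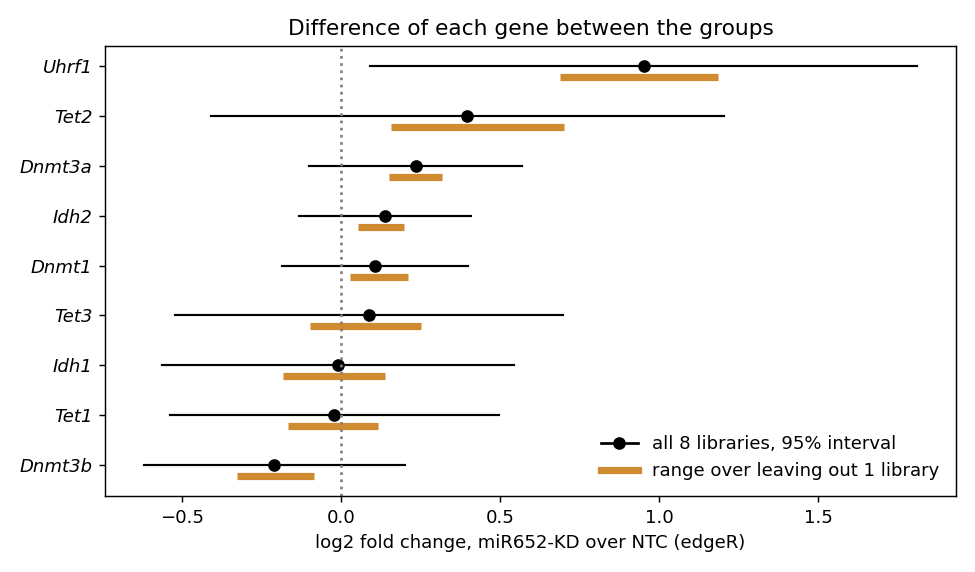
Log2 fold change of each of the 9 tested genes, miR652-KD over NTC, with its 95% interval from the edgeR fit (black) and the range when single libraries are left out (orange). The interval of Uhrf1, from 0.09 to 1.81, is the 1 that lies above 0, and none of the genes passed after adjustment over all genes.

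Levels were compared between genes per kb of exon, with all annotated exons of a gene as its length. Over the 8 libraries Idh2 averaged 174 ± 22.8 CPM per kb (SD, n = 8), above every other gene in all 8. Dnmt1 (21.4 ± 2.38), Idh1 (21.2 ± 5.13), Uhrf1 (17.9 ± 8.65) and Dnmt3b (16.9 ± 3.05 CPM per kb) formed a middle group whose neighbours did not differ beyond their spread. In that group Dnmt1 was above Idh1 in 3 of 8 libraries, Idh1 above Uhrf1 in 5 and Uhrf1 above Dnmt3b in 5. Dnmt3b was above Dnmt3a (7.24 ± 1.22 CPM per kb) in all 8 libraries, and Dnmt3a above Tet1 (3.75 ± 0.79 CPM per kb) in all 8. The order of Dnmt3b and Dnmt3a rests on the division by length, with 16.6 kb of exon for Dnmt3a and 5.11 kb for Dnmt3b. In plain CPM Dnmt3a averaged 130 in miR652-KD and 111 in NTC, above Dnmt3b at 80.2 and 92.9. Only NTC replicate 4 went the other way, at 99.6 CPM for Dnmt3a and 109 CPM for Dnmt3b. Tet1 exceeded Tet3 (3.46 ± 0.95 CPM per kb) in 5 libraries and Tet3 exceeded Tet2 (1.93 ± 0.67 CPM per kb) in 6. Scaled by the longest coding transcript instead, a choice made after the values were seen, Tet3 stood above Tet1 and the other ranks were the same.

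**Figure D3:**
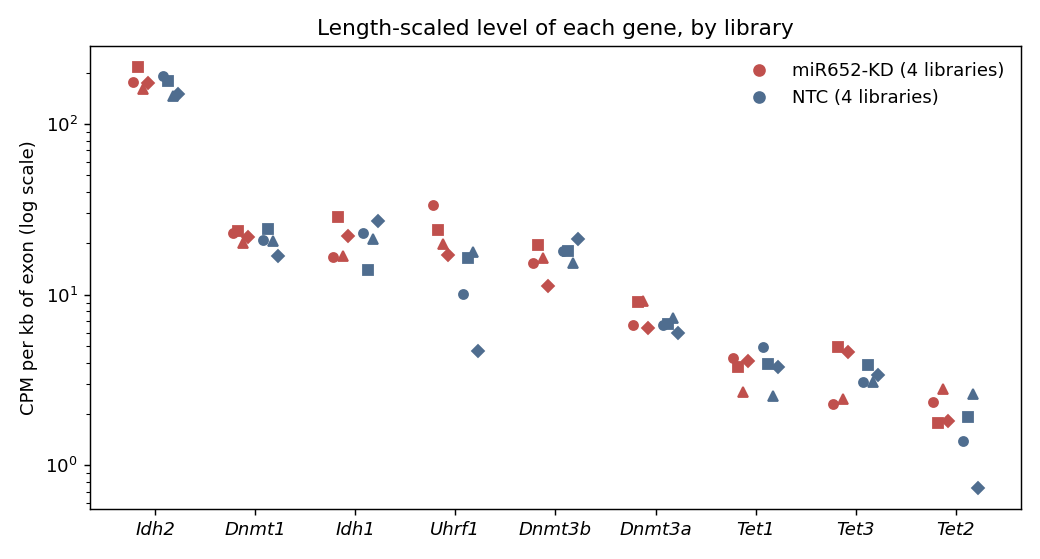
CPM per kb of exon on a log axis for the 9 detected genes in order of their mean, each point 1 library, with miR652-KD left and NTC right. Idh2 stands at 146 to 216, the TET genes at 0.741 to 4.92, and Uhrf1 spreads over the widest range of the middle group.

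Writers were set against erasers within each library. Uhrf1, the reader that brings DNMT1 to the replication fork, was counted with the writers. Summed per kb, the writers Dnmt1, Dnmt3a, Dnmt3b and Uhrf1 exceeded Tet1, Tet2 and Tet3 by a factor of 8.80, 7.30, 8.30 and 5.37 in miR652-KD replicates 1 to 4, against 5.93, 6.74, 7.40 and 6.18 in NTC replicates 1 to 4. The lowest and the highest ratio were both in miR652-KD libraries. On the log2 scale the ratio averaged 2.87 ± 0.32 in miR652-KD and 2.71 ± 0.14 in NTC (SD, n = 4 each), a difference of 0.16 that was smaller than the spread between miR652-KD libraries. It was 0.07 without miR652-KD replicate 1, 0.10 without miR652-KD replicate 3 and 0.31 without miR652-KD replicate 4. Without Uhrf1 among the writers the difference was -0.10, so its sign rested on that gene. The size of the ratio rests on the division by length. In plain CPM, with Uhrf1, the log2 ratio averaged 1.63 in miR652-KD and 1.52 in NTC, a difference of 0.11. As this is a sum over chosen members, no test was made. Of the summed TET level, Tet2 made up 26.5%, 16.9%, 35.4% and 17.4% in miR652-KD and 14.8%, 19.8%, 31.8% and 9.39% in NTC.

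**Figure D4:**
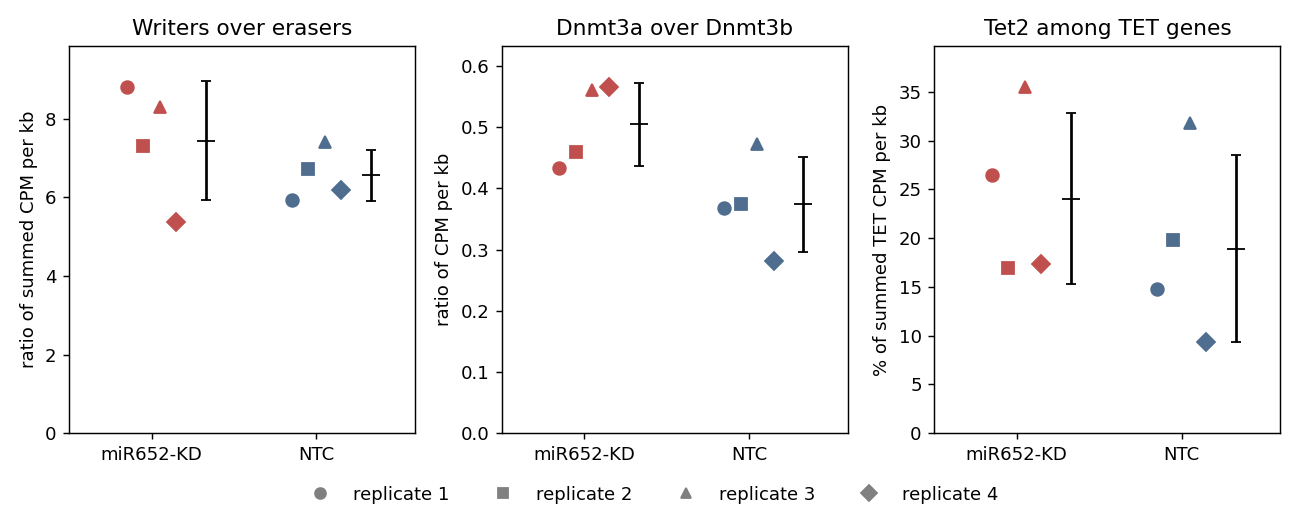
Ratio of writers (Uhrf1 included) to erasers, ratio of Dnmt3a to Dnmt3b and share of Tet2 in the summed TET level, by library. All are from CPM per kb of exon, with miR652-KD left and NTC right and bars for the mean and SD of 4 libraries. The groups overlap in each panel, with writer to eraser ratios of 5.37 to 8.80 in miR652-KD and 5.93 to 7.40 in NTC.

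UHRF1 and DNMT1 act at replication, so the members were set beside cell cycle genes. Of 40 tested S phase genes 0 passed, 7 had an unadjusted p below 0.05 with a higher value and 1 with a lower one, where 2.90% of all tested genes were higher and 3.09% lower at that p. Their median log2 fold change was 0.25, against -0.0043 over all tested genes. Of 27 G2 and M phase genes 0 passed by edgeR and limma-voom and 1, Cdca8, by DESeq2. Of these, 13 had an unadjusted p below 0.05, all higher in miR652-KD, with a median of 0.69. With miR652-KD replicate 3 left out it was 0.42. For S phase genes the median was 0.14 with miR652-KD replicate 1 left out, and 0.15 with NTC replicates 3 and 4 both left out. The mean log2 CPM of the S phase genes was 6.09, 5.60, 5.47 and 5.67 in miR652-KD and 5.26, 5.84, 5.68 and 5.25 in NTC, so that the groups overlapped. Uhrf1 lay above that mean by 1.07, 1.07, 0.94 and 0.52 in miR652-KD replicates 1 to 4 and by 0.17, 0.29 and 0.56 in NTC replicates 1 to 3, and NTC replicate 4 had a difference of -0.92. These groups overlapped through miR652-KD replicate 4 and NTC replicate 3. The part of cell cycle genes in the difference of Uhrf1 was not tested.

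Across the 8 libraries the log2 CPM of Uhrf1 went with the S phase mean at Pearson r = 0.79 (exact permutation p = 0.0194) and Spearman rho = 0.57 (exact permutation p = 0.151). For Dnmt1 r was 0.71 (exact permutation p = 0.0459) and rho 0.67 (exact permutation p = 0.0831). Adjusted over 18 relations (9 genes by 2 lists), neither passed, at 0.280 for r in both and 0.513 for rho in both. Without miR652-KD replicate 1 and NTC replicate 4, the libraries farthest from the median, r was 0.51 for Uhrf1 and 0.60 for Dnmt1. With the group means taken out r was 0.79 for Uhrf1 and 0.67 for Dnmt1. Relations of about that size or larger were not limited to these genes. With the G2 and M phase mean r was -0.70 for Tet1 and 0.69 for Dnmt3a (exact permutation p = 0.0596 and 0.0622, both 0.280 adjusted). With the group means taken out these were -0.89 for Tet1, larger in size than the 0.79 of Uhrf1, and 0.56 for Dnmt3a. Uhrf1 and Dnmt1 had r of 0.32 and -0.14 with the G2 and M phase mean. With 4 libraries a group, no value within a group was computed. Among the 36 pairs of members the largest r was that of Tet2 with Uhrf1, at 0.87 (exact permutation p = 0.0108; 0.389 adjusted over the pairs), with rho = 0.62 (exact permutation p = 0.115; 0.680 adjusted), and r was 0.64 without the 2 libraries farthest from the median of Tet2. Thus 0 pairs passed after adjustment.

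**Figure D5:**
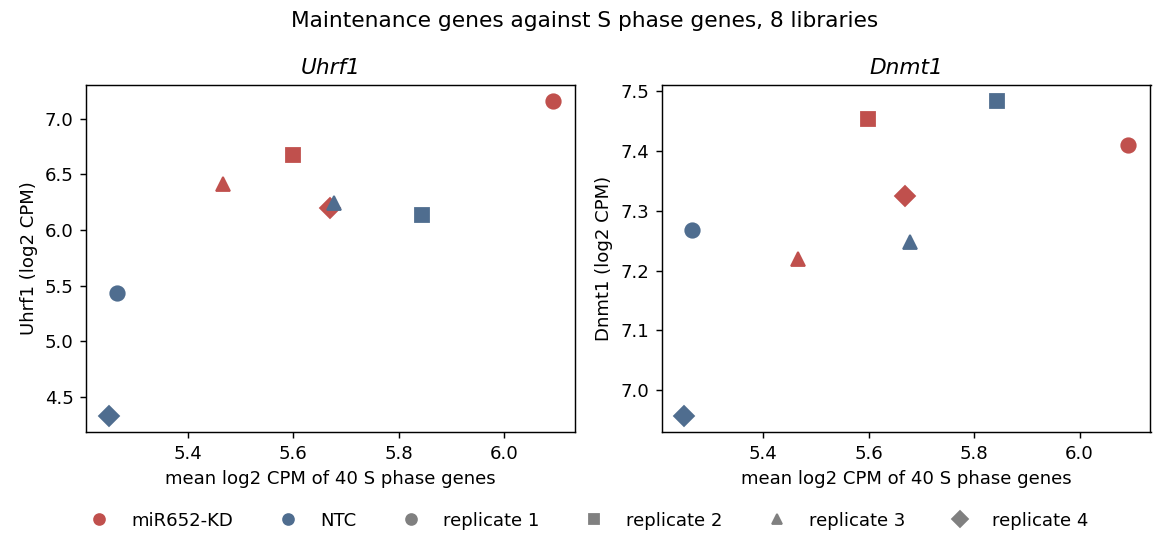
Log2 CPM of Uhrf1 and Dnmt1 against the mean log2 CPM of 40 S phase genes in the 8 libraries, by group and replicate. NTC replicate 4 is lowest in both panels, at 4.33 for Uhrf1 and 6.96 for Dnmt1, and miR652-KD replicate 1 has the highest S phase mean, at 6.09.

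The genes with the most similar pattern over the 8 libraries were sought among 10130 protein-coding genes of at least 5 CPM. For Uhrf1 these were Atg9b (r = 0.97), Zfp809 (r = 0.96, with rho = 1.00, the same order of libraries) and Asf1b (r = 0.96). For Dnmt1 they were Zfp131, Icam1 and Nfyc (r from 0.94 to 0.96), for Dnmt3a Ptms, Gtf3c5 and Rhno1 (0.94 to 0.95), and for Tet2 Oas1a, Pros1 and Polq (r of 0.96 each). With 8 libraries and so many genes, 9 to 27 genes exceeded r = 0.9 for each of these members, so the likeness is a description only.

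The surrounding pathway was described by 6 lists, in which 0 genes passed by edgeR and limma-voom and 1, Ogt, by DESeq2. Over all tested genes 5.99% had an unadjusted p below 0.05, and 4.50% did not overlap between the groups in either direction. In the lists 1 maintenance partner, 1 gene of the methyl-CpG list and 1 active demethylation gene did not overlap, and 0 genes of the others. Of 23 partners of methylation maintenance 22 were tested, 12 with values above 0 and 10 below, with a median of 0.04 and 2 genes at an unadjusted p below 0.05. Daxx, a histone H3.3 chaperone, was at 32.8, 33.2, 32.97 and 31.4 CPM in miR652-KD, against 66.6, 41.9, 80.4 and 41.7 CPM in NTC. The groups did not overlap, and the log2 difference of -0.82 (SE 0.24) did not pass (edgeR adjusted p = 0.764). Pcna, the replication clamp, was at 0.34 (adjusted p = 0.833), Usp7, a deubiquitinase that binds UHRF1 and DNMT1, at -0.34 (0.838) and Ehmt1, a histone H3 lysine methyltransferase, at -0.40 (0.918). Of 11 methyl-CpG readers and their relatives, among them Mbd3, Mbd5 and Mbd6, all tested, 4 had values above 0 and 7 had values under 0. Their median was -0.11 (-0.02 without NTC replicate 4 and by limma-voom, -0.04 without NTC replicates 3 and 4, -0.19 without miR652-KD replicate 1). Of these, 2 were at an unadjusted p below 0.05. Mbd2, which binds methylated CpG, was at 19.8, 21.2, 25.1 and 23.7 CPM in miR652-KD, against 27.6, 41.8, 34.1 and 28.4 CPM in NTC, without overlap (log2 difference -0.56, SE 0.23, edgeR adjusted p = 0.832). Its relative Mbd3 had a log2 difference of 0.40 (adjusted p = 0.823), with overlap. Zfp57, which guards imprinted methylation, had a log2 difference of -0.55 (adjusted p = 0.924).

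Of 20 genes of active demethylation and base excision 16 were tested, 7 above 0 and 9 below, with a median of -0.04 and 1 at an unadjusted p below 0.05. That was Ogt, the O-GlcNAc transferase that binds TET proteins, at 522, 407, 430 and 430 CPM in miR652-KD, against 601, 570, 562 and 599 CPM in NTC. Every miR652-KD library was below every NTC library, where 4.50% of all tested genes did not overlap in either direction. The log2 difference of -0.38 (SE 0.10) did not pass in edgeR (adjusted p = 0.606) and passed in DESeq2 (adjusted p = 0.0421). The base excision genes Smug1 (-0.79) and Xrcc1 (0.49) and the stress gene Gadd45a (-0.72) overlapped between groups, with edgeR adjusted p of 0.918 to 0.934. Of 20 genes that supply the methyl donor S-adenosylmethionine, all tested, 13 had values above 0 and 7 had values under 0, at a median of 0.08 (0.23 without NTC replicate 2). Of these, 2 were at an unadjusted p below 0.05, where 5.99% of all tested genes were. Tyms, the thymidylate synthase that the S phase list also holds, had a log2 difference of 0.56 (edgeR adjusted p = 0.832). The polyamine gene Srm was at 0.36 and the mitochondrial folate enzyme Mthfd2 at 0.59, with adjusted p of 0.844 and 0.934. Of 23 tested genes of 24 for 2-oxoglutarate supply and its competitors, 12 had values above 0 and 11 had values under 0, at a median of 0.01. At an unadjusted p below 0.05 there was 1. The 2-oxoglutarate dehydrogenase genes Ogdh (-0.29) and Dld (-0.34) and the succinate dehydrogenase gene Sdhc (0.27) had adjusted p of 0.860, 0.918 and 0.860.

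Most of the listed germline genes, whose promoters are methylated in somatic tissue, had 0 counts in both groups. Of 18 such genes 13 had 0 counts in all libraries and 3 passed the filter on low counts. Their summed level was 11.3 to 22.7 CPM in miR652-KD and 17.3 to 46.3 CPM in NTC, with overlap. Tdrkh and Brdt made up most of it, at means of 12.3 and 3.19 CPM in miR652-KD and 20.2 and 8.14 CPM in NTC, and neither they nor Dazl passed (edgeR adjusted p of 0.989, 0.989 and 0.999).

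Among tested genes with an annotated 3′ UTR, 230 of 11616 held the miR-652-3p match that Uhrf1 holds. Of these 0 passed by edgeR, 5 had an unadjusted p below 0.05 with a higher value in miR652-KD and 9 with a lower one, and 102 were above 0. Their median log2 fold change was -0.04, against -0.01 over all 11616 genes. Uhrf1 ranked 10 from the highest among them. The 982 genes with the 5p match, which include Dnmt3a and Tet2, had a median of -0.03, with 1 called by edgeR, not a member, and 30 at an unadjusted p below 0.05 higher and 43 lower. The higher genes at that p were 2.17% of those with the 3p match and 3.05% of those with the 5p match. Over all tested genes 2.90% were higher and 3.09% lower at that p, 49.5% were above 0 and 0.0418% were called.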

How the data were processed

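The authors deposited read counts per gene, not normalized, for each library, with 55487 gene rows and 5 HTSeq summary lines, which were left out of library sizes and tests. HISAT2 (2.1.0), HTSeq (0.11.2), DESeq2 and build mm10 are named in the submitters' processing notes. Annotation release and strand setting: not given in the sources used here. Reads outside genes were 9.69% to 16.9% of each file and ambiguous reads 8.94% to 12.3%. NTC replicate 1 had both the 16.9% and the 8.94%. The other libraries had at most 11.3% outside genes and at least 10.6% ambiguous. Identifiers were matched without version to GENCODE M21, 55394 of them. CPM are counts per 1000000 counts in genes; log2 CPM used a prior count of 2. Groups follow the genotype label. They were compared with edgeR 4.0.16 under R 4.3.3, using TMM scaling, filterByExpr (minimum count 10, total 15) and robust quasi-likelihood fits, on 14360 genes, and called adjusted p below 0.05. SE is the log2 fold change over the square root of F, and 95% intervals used the fit's degrees of freedom. DESeq2 1.42.0 and limma-voom (limma 3.58.1) were alternatives, with other scalings, filters, a replicate block and left-out libraries. The procedures were tested on simulated counts. Permutation tests were exact and two-sided. Smart-seq2 has no molecular identifiers, so limits cover counting error only.

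Members and lists were chosen with earlier results of these data known. Named genes were the members and, per list, those past the threshold or else up to 4 of smallest p; nearest patterns were the 3 genes of highest r. Some genes that this rule names are not reported here. The labels do not say whether equal replicate numbers pair the libraries, and the main test did not pair them.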

Additional observations from a re-analysis of the deposited data

Results flagged for a closer look

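In 86 groups of 4 libraries examined, 3 had a library that stood apart from the other 3 by more than Dixon's 95% critical value, where chance gives about 1 in 20 groups. Brdt was at 14.9 CPM in NTC replicate 1 and at 5.07 to 6.29 CPM in the other NTC libraries. Gins3 was at 9.15 CPM in NTC replicate 1 and at 13.96 to 14.2 CPM in the other NTC libraries. Ckap2l was at 15.8 CPM in NTC replicate 3 and at 12.3 to 12.8 CPM in the other NTC libraries. None of the 9 detected DNA methylation, TET and IDH genes stood apart in this way in either group.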

How the results depend on the processing

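None of the 9 tested genes was called under any of 17 alternatives each, and 0 genes of the pathway and cycle lists were, other than Ogt and Cdca8 by DESeq2 (1 called in each of their lists). Over all genes 6 were called, 61 by DESeq2, and 0 without any single library, without NTC replicates 3 and 4 together, or with the replicate block. Libraries of equal number did not deviate together from their group means (r of -0.11 to -0.03 over 11230 genes). With 4 libraries a group this cannot decide whether equal numbers mark a shared origin, which the labels do not give. The replicate block gave Uhrf1 a log2 fold change of 1.08 (edgeR adjusted p = 0.905).

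Some differences changed sign, most of them near 0 but also those of the germline genes Tdrkh and Dazl. The cause was not tested. The log2 fold change of Tet1 was 0.072 by limma-voom and -0.17 to 0.11 over left-out libraries. That of Tet3 was -0.097 to 0.25 over left-out libraries. Idh1 was at 0.013 with upper-quartile scaling, 0.0048 by limma-voom, 0.21 without NTC replicates 3 and 4 together and -0.18 to 0.14 over left-out libraries. Without NTC replicates 3 and 4 together Dnmt1 was at -0.020, Idh2 at -0.0093, Tdrkh at 0.52, and the median of maintenance partners at -0.074 and of methyl donor genes at -0.00635. Over left-out libraries the median was -0.068 to 0.098 for maintenance partners, -0.088 to 0.040 for active demethylation genes and -0.093 to 0.057 for 2-oxoglutarate genes, and Dazl ran from -1.70 to 0.88. The median of active demethylation genes was 0.050 without a filter and that of 2-oxoglutarate genes -0.0056 by limma-voom. The log2 writer to eraser difference was 0.07 to 0.31 over left-out libraries, -0.10 without Uhrf1 and 0.11 in plain CPM. It was 0.12 by longest transcript, a setting chosen after seeing the data. The median over all genes was -0.0095 to 0.016 under the other scalings.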
